A study of Mus musculus with 30 samples.

Results

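The regions described here are short stretches of histone H3 trimethylated at lysine 9 (H3K9me3) that were called in every H3K9me3 ChIP-seq library of the study and lie away from protein-coding genes. The regions of the 6 libraries were merged wherever they shared at least 1 base on chromosomes 1 to 19, and a merged region was kept when it was shorter than 30 kb, was called in all 6 libraries and lay over 5 kb from every protein-coding gene body of the GRCm38.p6 annotation. This kept 11496 of 44431 merged regions. They make up most of the 17339 merged regions called in all 6 libraries. The others were 5131 regions under 30 kb that overlapped a coding gene or lay within 5 kb of one, called gene-linked short regions here, and 712 regions of 30 kb or more, called long regions. The regions were selected on their calls, length and position, so those properties are given as a description with no test.

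H3K9me3 is a mark of silent chromatin. In mouse embryonic stem cells it is placed on endogenous retroviruses and other repeats mainly by SETDB1 with its partner TRIM28, at pericentromeric satellites by SUV39H1 and SUV39H2, and it is read by the HP1 proteins (Cbx1, Cbx3 and Cbx5). KDM4A, KDM4B and KDM4C are demethylases that remove it. Repeats were not annotated in the sources used here, so no region is assigned to a repeat class.

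The study concerns KDM4A and ETV2, or ER71, a transcription factor of the ETS family without which the embryo forms no blood or vessels. ChIP was done in 3 DOX libraries, titled DOX-D2, DOX-D3 and Er71-Flag-DOX-D2, and in 3 noTreat libraries without DOX, titled noTreat1, noTreat2 and noTreat3. The titles name these cells EB, whereas the cell type label is embryonic stem cell for all samples, and the labels do not say what D2 and D3 stand for. Doxycycline (DOX) is the agent that switches on Etv2 in the iETV2 line. The DOX group is thus 3 libraries that differ in their titles, and the labels do not say which line the ChIP cells were. RNA comes from iETV2 cells with DOX, iETV2 control cells without it, cells with the label KDM4A/4C DKO, for double knockout (DKO from here on), and their control cells, whose line the labels do not name, with 3 libraries in each group. No label says that the replicates were separate cultures, so p-values measure only the spread between these libraries.

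A few sequences show what kinds of annotated elements the regions hold. The mature miRNAs whose hairpins lie inside a region are printed first because each can be shown whole; capitals mark the seed, bases 2 to 8, and no seed is shared. All sequences are from RefSeq on build GRCm38.p6 and are written 5′ to 3′.
mmu-miR-675-5p: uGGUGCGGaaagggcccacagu
mmu-miR-675-3p: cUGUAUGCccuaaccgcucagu
mmu-miR-344c-5p: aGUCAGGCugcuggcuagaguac
mmu-miR-344c-3p: uGAUCUAGucaaagccugacagu
mmu-miR-6342: cAGCAGCAaucuggucuuugag
mmu-miR-8099: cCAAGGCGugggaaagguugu
mmu-miR-682: cUGCAGUCacagugaagucug
mmu-miR-6241: cACGGCGGcuggaauuccc

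These came from 6 of 919 annotated hairpins, or 0.653%. Mir675 is processed from H19, an imprinted RNA, and lies on the minus strand at chr7:142577064-142577147 in a region of 10.2 kb. Mir344c lies on the minus strand at chr7:61837311-61837402 in a region of 19.4 kb, 505 kb from Ndn, the nearest coding gene. Mir6342 lies on the plus strand at chr1:29421488-29421612 in a region of 17 kb. Mir8099-2 lies on the plus strand at chr12:93927338-93927464 in a region of 18.2 kb that was over 1 Mb (1019.65 kb) from any coding gene. The region that held Mir682 was the shortest of these at 4.8 kb.

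The promoter of Meg3, an imprinted long non-coding RNA, is printed because it belongs to the most abundant RNA whose gene overlaps a region. The promoter of Gm29895, another long non-coding RNA, is printed beside it because its RNA was lower with DOX. Each window runs from 250 bases before to 50 bases after the annotated start, on the plus strand, and capitals mark CpG dinucleotides.
Meg3, chr12:109540746-109541045: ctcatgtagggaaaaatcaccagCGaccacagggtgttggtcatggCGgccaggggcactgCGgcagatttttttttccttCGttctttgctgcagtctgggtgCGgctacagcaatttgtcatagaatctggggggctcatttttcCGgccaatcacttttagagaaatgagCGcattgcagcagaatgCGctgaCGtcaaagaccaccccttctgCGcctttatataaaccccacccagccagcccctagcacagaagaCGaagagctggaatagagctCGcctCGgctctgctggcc
Gm29895, chr8:78044822-78045121: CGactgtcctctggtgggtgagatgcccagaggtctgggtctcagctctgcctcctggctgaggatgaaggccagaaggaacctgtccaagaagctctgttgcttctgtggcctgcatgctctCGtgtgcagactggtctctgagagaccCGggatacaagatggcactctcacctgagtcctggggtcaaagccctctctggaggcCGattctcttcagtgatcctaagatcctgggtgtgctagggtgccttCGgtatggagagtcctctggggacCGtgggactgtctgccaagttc

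The Meg3 window held 13 CpGs at 53.7% GC, and the Gm29895 window held 6 CpGs at 58% GC. In all, 206 promoter windows of 174 long non-coding RNA genes lay wholly inside a region. Their median was 4 CpGs and 47.7% GC. The 6128 windows of long non-coding RNA genes that lay over 5 kb from coding genes and outside every shared region had a median of 3 CpGs and 46.7% GC. Windows with at least 10 CpGs made up 14.1% inside the regions and 7.39% outside them. CCGGAA, a sequence that ETS factors bind and that itself contains a CpG, was searched on both strands. Of the windows inside the regions 7.28% held it, against 5.79% of those outside. Of all 31396 promoter windows of coding and non-coding genes in the table (chromosomes 1 to 17 and 19), 15.1% did. The Meg3 window was among those that held it, on the minus strand.

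The regions were mostly a few kilobases long. Their median length was 7400 bp, with quartiles of 5400 and 10200 bp, a shortest of 200 bp and a longest of 29800 bp. The gene-linked short regions had a median of 7200 bp and quartiles of 5200 and 10200 bp. Together the regions covered 98.1 Mb, which is 7.44% of the 1318 Mb of sequence over 5 kb from coding genes. The most common lengths were 6 to 7 kb, with 1499 regions, and 7 to 8 kb, with 1530.

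Not all of a region was called in every library. The bases called in all 6 libraries, the core of a region, had a median of 2800 bp and summed to 45.2% of the total length. In 236 regions (2.05%) no single base was called in all 6, since the calls of different libraries touched but did not coincide. Over all chromosomes together core lengths formed 2 groups, one between 1 and 3 kb and another between 5 and 7 kb, as the plot shows.

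The second group stood out on a few chromosomes. A core of 5 to 7 kb was found in 2031 regions, of which 58.3% lay on chromosomes 1, 10, 11 and 12. Of the 2751 regions with a core between 1 and 2 kb, 24.5% lay there. The median enrichment of the 5 to 7 kb group was 1.77-fold over input. It was 1.61-fold on chromosomes 1, 10, 11 and 12 and 2.73-fold on the other autosomes. Its median input density was 39.8 counts per kb, against 24.1 counts per kb in the group with a core of 1 to 2 kb.

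**Figure D1:**
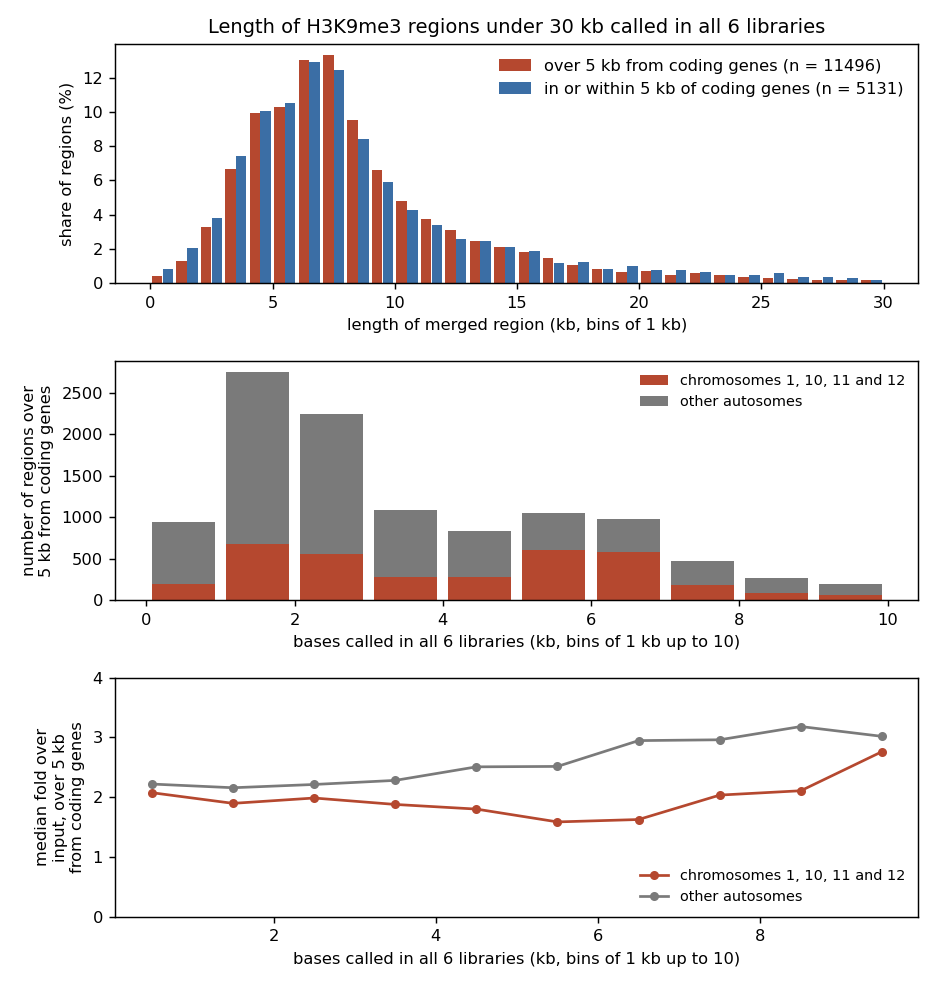
Length of the regions. The top panel gives the share of regions (%) by merged length in bins of 1 kb, for the 11496 regions over 5 kb from coding genes and for the 5131 gene-linked short regions; both peak between 6 and 8 kb. The middle panel gives the number of regions by the bases called in all 6 libraries, split by chromosome. The bottom panel gives their median fold over input, split likewise. From 5 to 7 kb there were 1185 regions on chromosomes 1, 10, 11 and 12, where they form a peak, at a median of 1.61-fold. The other autosomes held 846 at 2.73-fold and show no peak there.

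Enrichment was modest and much the same in every library. Fold here is ChIP over input counts, divided by the library's constant that the deposited log2 fold change implies. The median over regions was 2.38 in DOX-D2, 2.15 in DOX-D3 and 2.16 in Er71-Flag-DOX-D2, against 1.99 in noTreat1, 2.11 in noTreat2 and 2.18 in noTreat3. The highest DOX library lay above every noTreat library, and the other 2 DOX libraries lay within the noTreat range. Across regions the median of the 6 libraries was 2.17-fold, the middle 80% lay between 1.56-fold and 3.31-fold, and the extremes were 1.13-fold and 7.98-fold. The log2 enrichment of the same 11496 regions correlated between library pairs with Pearson values of 0.632 to 0.773 over 15 pairs. These values share the position and base composition of each region, and the lowest belongs to Er71-Flag-DOX-D2 with noTreat3.

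The counts behind these folds were high enough for most regions. The median ChIP count per region was 369 in DOX-D2, 293 in DOX-D3 and 209 in Er71-Flag-DOX-D2, against 306, 368 and 249 in noTreat1, noTreat2 and noTreat3. The regions held 36.3 to 39.9% of the ChIP counts inside all called regions of a library. Whole-library depth is not known, because counts are given only inside called regions.

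Enrichment over input is what the calls rest on, so the comparison with the other shared regions, which passed the same calls, is a description with no test. Compared with long regions, the short intergenic regions were less enriched. The median deposited log2 fold change over called pieces averaged 1.10 ± 0.08 in the short intergenic regions and 1.22 ± 0.07 in the long regions (SD, n = 6 libraries). The difference was negative in 6 of 6 libraries and lay between -0.19 and -0.02. Long regions were called in more pieces, 2.36 to 5.43 per region, where the short intergenic regions had 1.10 to 1.20.

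The short intergenic and the gene-linked short regions were nearly alike in fold. Their median log2 fold changes were 1.10 ± 0.08 and 1.10 ± 0.08 (SD, n = 6 libraries), with within-library differences between -0.016 and 0.014 that were positive in 3 of 6 libraries. ChIP counts per kb, relative to the library's median piece, averaged 1.09 in the intergenic and 1.10 in the gene-linked short regions, and the difference of -0.016 had the same sign in 6 of 6 libraries. Set against long regions, the same measure averaged 1.09 in the short intergenic and 1.05 in the long regions and was higher in 4 of 6 libraries.

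**Figure D2:**
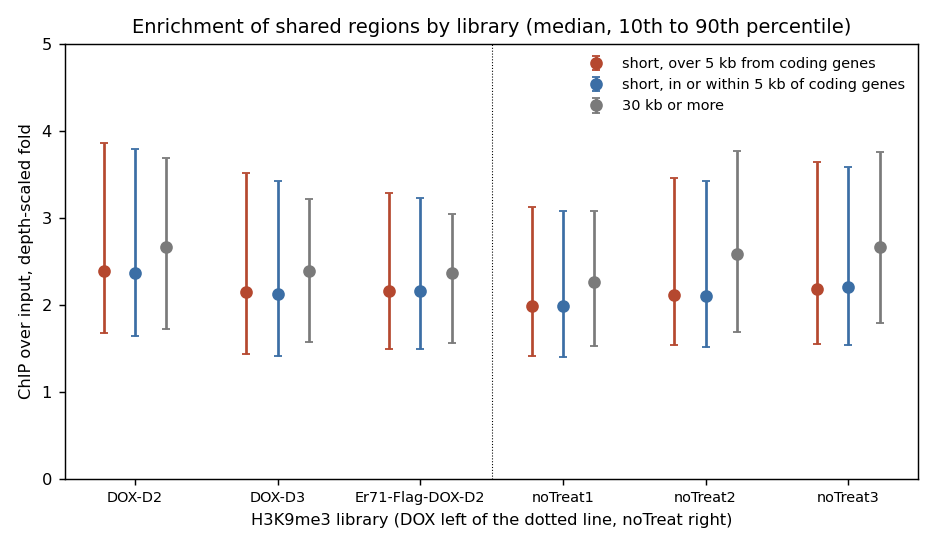
Enrichment over input (depth-scaled fold) in each H3K9me3 library for the short intergenic regions, the gene-linked short regions and the long regions. Points are medians over regions and bars run from the 10th to the 90th percentile. In each library the short intergenic and gene-linked medians nearly coincide, between 1.99 and 2.38, and the long regions sit higher, between 2.26 and 2.67.

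The 5 regions with the highest ratio of ChIP to input were 3.2 to 10.4 kb long. The highest ratio was at chr13:74526801-74531400, 4.6 kb long, inside the pseudogene Gm20590 and 32.8 kb from Zfp825, a zinc finger gene. Its ChIP counts were 2690, 3592 and 1568 in DOX-D2, DOX-D3 and Er71-Flag-DOX-D2, against 4097, 3227 and 1691 in noTreat1, noTreat2 and noTreat3. Input counts there were 415, 361 and 216 in the DOX libraries and 353, 351 and 239 in the noTreat libraries, which makes a median of 7.98-fold. The DOX and noTreat libraries overlapped. Next came chr4:113376601-113379800 in the pseudogene Gm12813 near Skint6 with 6.74-fold, chr14:9415201-9425600 near Fhit, a fragile-site tumour suppressor gene, with 6.74-fold, chr7:22078801-22088000 near the vomeronasal receptor gene Vmn1r139 with 5.64-fold and chr17:74082801-74087800 near Srd5a2 with 5.90-fold. The region near Vmn1r139 had no base called in all 6 libraries.

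At the other end stood regions with very high counts in both ChIP and input. The lowest ratio, 1.04, was at chr8:20812201-20841600, 29.4 kb long, over the pseudogenes Gm20946 and Gm20797 and 51.1 kb from Defb33, a beta-defensin gene. Its ChIP counts were 4390 to 5520 in the DOX libraries and 5135 to 6689 in the noTreat libraries, beside input counts of 4472 to 5481 and 3593 to 5444. The second lowest, chr17:39835601-39856800, overlapped Rn18s-rs5, a ribosomal RNA pseudogene, and AY036118, and had ChIP counts of 7517 to 10191 in the DOX libraries and 8266 to 11038 in the noTreat libraries. Its input counts were 7706 to 9855 in the DOX libraries and 7051 to 8666 in the noTreat libraries. The sources used here do not state how reads that map to several places were handled, so counts at such repeated sequence are uncertain. The other 3 of the lowest 5 lay near Ctf2, Xkr4 and Gm10376 with ratios of 1.13, 1.14 and 1.16.

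The longest 5 regions each spanned 29.8 kb. Their folds ran from 1.47 at chr14:3083801-3113600 to 4.47 at chr7:31929601-31959400, which holds the pseudogene Gm46010. Just outside the length limit, regions of 30, 30.2 and 30.2 kb had folds of 2.05, 1.88 and 2.37. The members nearest to a coding gene lay 5001 to 5009 bases away, from Wdr92, Pdzrn3 and Nus1, with folds of 1.58, 3.28 and 1.62. Regions at 5000, 4995 and 4993 bases, near Lypd6, Gm51464 and Fyb, were left out and had folds of 2.18, 2.06 and 2.00.

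Most regions were far from coding genes. The median distance was 115495 bp, 7.36% lay within 10 kb and 671 regions (5.84%) lay over 1 Mb away. Length and fold hardly varied with distance. The median fold was 2.21 within 10 kb, 2.13 between 50 and 200 kb and 2.26 beyond 1 Mb. The nearest coding gene was an odorant receptor (Olfr) gene for 205 regions, or 1.78% of them, and such genes are 5.34% of coding genes. For vomeronasal receptor (Vmn) genes the shares were 1.58% and 1.71%, and for zinc finger (Zfp) genes 1.44% and 1.89%. The share of coding genes is not an expected value here, because the rule leaves out regions within 5 kb of any coding gene.

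The regions were not spread evenly. The median gap between neighbours was 66800 bp, against 153600 bp between the less numerous gene-linked short regions. Gaps under 10 kb made up 13.7% and gaps under 50 kb 42.8%, while 461 gaps were over 1 Mb. When runs with gaps under 50 kb were joined, 4118 regions (35.8%) stayed alone and 2028 (17.6%) fell in 312 clusters of 5 or more. The largest clusters held 17 regions each. They lay at chr1:145692001-146295000, 201 kb from Brinp3, at chr1:101858601-102395200, 1368 kb from Cntnap5b, at chr3:22270001-22785800, 53.4 kb from Tbl1xr1, a corepressor gene, and at chr3:3821801-4312800, 162 kb from Hnf4g, a nuclear receptor gene. The rule for naming clusters asked for 3, and the 4 with 17 regions tied. The densest of the 10 largest clusters was chr1:44244801-44505600, where 15 regions covered 65.0% of the span.

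Chromosomes 1, 10, 11 and 12 carried more regions than their share of gene-free sequence. They held 3706 regions (32.2%) on 23.2% of the sequence over 5 kb from coding genes. This is 12.1 regions per Mb against 7.70 on the other autosomes. The excess was not particular to the intergenic regions, since the same chromosomes held 29.5% of the gene-linked short regions. Of the long regions they held 17.6%. Observed over expected numbers were 1.54 on chromosome 1, 1.53 on chromosome 10, 1.11 on chromosome 11 and 1.23 on chromosome 12. Chromosome 13 stood at 1.20, and the other 14 chromosomes ran from 0.724 to 0.974. This set of chromosomes was chosen after the values were seen.

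On the same chromosomes enrichment was lower and the input was denser. Median fold was 1.75 on chromosomes 1, 10, 11 and 12 and 2.28 on the other autosomes. Input counts per kb of called sequence were 1.44 times as high there in DOX-D2, DOX-D3 and Er71-Flag-DOX-D2, and 1.47, 1.46 and 1.44 times in noTreat1, noTreat2 and noTreat3. ChIP counts per kb were 1.29, 1.23 and 1.24 times as high in the 3 DOX libraries and 1.28, 1.31 and 1.31 times in the 3 noTreat libraries. Chromosome 13 was intermediate, with an input density of 1.16 times the median chromosome and a median fold of 1.96. All 6 libraries showed the pattern, in input and in ChIP alike, and the part of input density in the number of regions called was not tested. Of the 29 clusters of 10 or more regions, 11 were on chromosome 1, 6 on chromosome 10, 3 each on chromosomes 3, 12 and 13, 2 on chromosome 11 and 1 on chromosome 2. Without the 4 chromosomes the median fold over all regions was 2.28 and the density 7.70 regions per Mb.

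**Figure D3:**
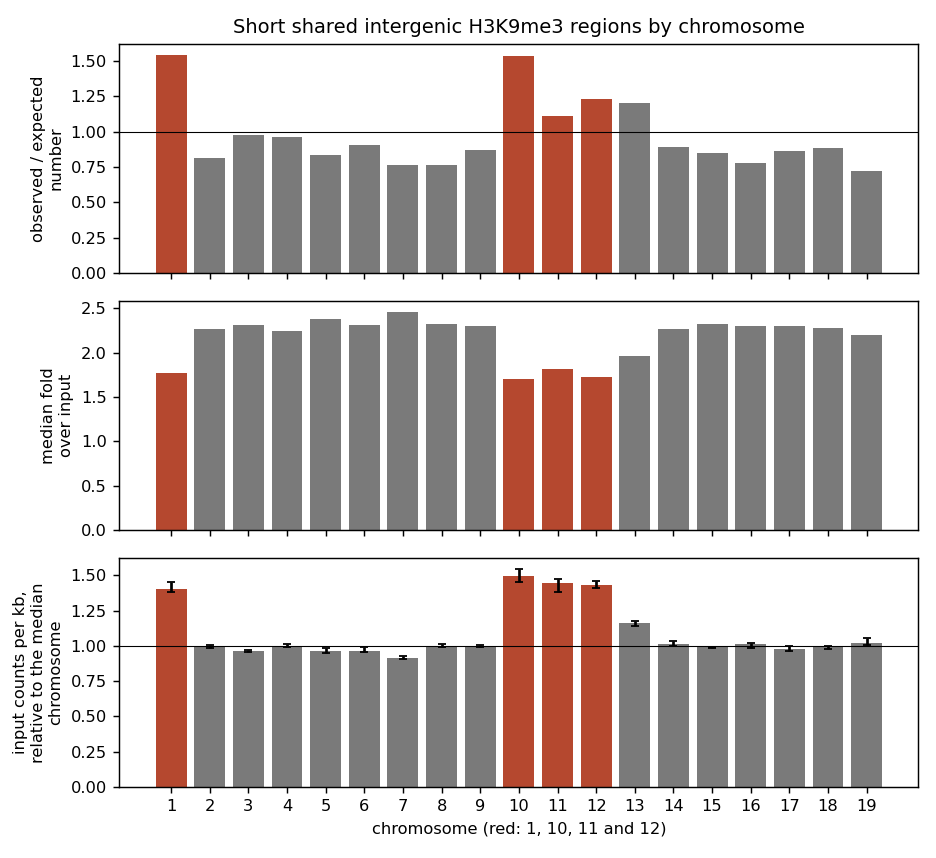
Short intergenic regions by chromosome. The top panel gives the observed over the expected number, where the expected number follows each chromosome's share of sequence over 5 kb from coding genes; the middle panel gives the median fold over input; the bottom panel gives input counts per kb relative to the median chromosome, with bars for the median and whiskers for the lowest and highest of 6 libraries. Chromosomes 1, 10, 11 and 12 are high in the top and bottom panels and low in the middle one, with chromosome 13 between them and the rest.

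Among these regions few passed the test for a change of the mark with DOX. The regions had to be called in all 3 DOX and all 3 noTreat libraries, so any that DOX removed or created are not among them, and the counts describe only regions marked in both groups. ChIP counts were tested with edgeR's quasi-likelihood test with input counts as offset and libraries centred on the median ratio, and p-values were adjusted by Benjamini-Hochberg over all 17339 shared regions. Of the 11496 regions, 3 were lower with DOX at an adjusted p under 0.05 and 0 were higher, which is 0.0261% where 0.0980% of all shared regions were called lower. At an unadjusted p under 0.05, 764 regions (6.65%) passed, where 7.83% of all shared regions did. limma called 0 regions. DESeq2 called 15 lower and 1 higher among the 387 regions to which it gave an adjusted p (4.13%). Of the 1204 shared regions to which it gave one, it called 12.3%. The other 14 shared regions called by edgeR were long ones, and none was gene-linked and short. The median log2 change over the regions was -0.028 with the median centring, but 0.060 with the constants of the deposited fold changes and 0.027 with called length and TMM scaling, so that its sign depends on the scaling. The median standard error of a region was 0.18, and the middle 80% of changes ran from -0.27 to 0.24.

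All 3 called regions lay on chromosome 12 and were 12.8 to 16.6 kb long. At chr12:19739801-19755400, 68.7 kb from Gm38702, the folds were 1.86, 1.67 and 1.66 in DOX-D2, DOX-D3 and Er71-Flag-DOX-D2, against 2.19, 3.05 and 3.58 in noTreat1, noTreat2 and noTreat3. All 3 DOX libraries lay below all 3 noTreat libraries, and the log2 change was -0.84 (SE 0.13, edgeR adjusted p = 0.0239). At chr12:18570601-18583400, 32.5 kb from 5730507C01Rik, the folds were 2.12, 2.29 and 2.29 in the DOX libraries and 2.88, 3.56 and 4.24 in the noTreat libraries, a log2 change of -0.75 (SE 0.14, edgeR adjusted p = 0.0343). At chr12:21786601-21803200, 27.3 kb from Gm46305, they were 2.75, 2.03 and 2.05 in the DOX libraries and 2.70, 4.10 and 4.10 in the noTreat libraries, and DOX-D2 lay above noTreat1. Its log2 change was -0.76 (SE 0.13, edgeR adjusted p = 0.0343).

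These calls rest on single libraries and on the scaling. Without noTreat1, 27 regions (0.235%) were called, 21 lower and 6 higher, where 0.842% of all shared regions were called. Without DOX-D2, DOX-D3, noTreat2 or noTreat3, 0 were called, and without Er71-Flag-DOX-D2 1 was called lower and 1 higher. With the deposited constants 0 were called and the adjusted p of chr12:19739801-19755400 was 0.0614. Over all alternatives its log2 change ran from -0.98 to -0.57 and its adjusted p from 0.000179 to 0.632. Between 18 and 23 Mb of chromosome 12, a window that holds all 3 and was chosen after the calls were seen, 17 of 20 regions had a negative change, with a median of -0.41 and a range from -0.93 to 0.20. Among them are the 3 called ones, without which 14 of 17 were negative; over all regions 56.0% were. The long regions of that stretch supplied 6 of the 14 long calls.

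**Figure D4:**
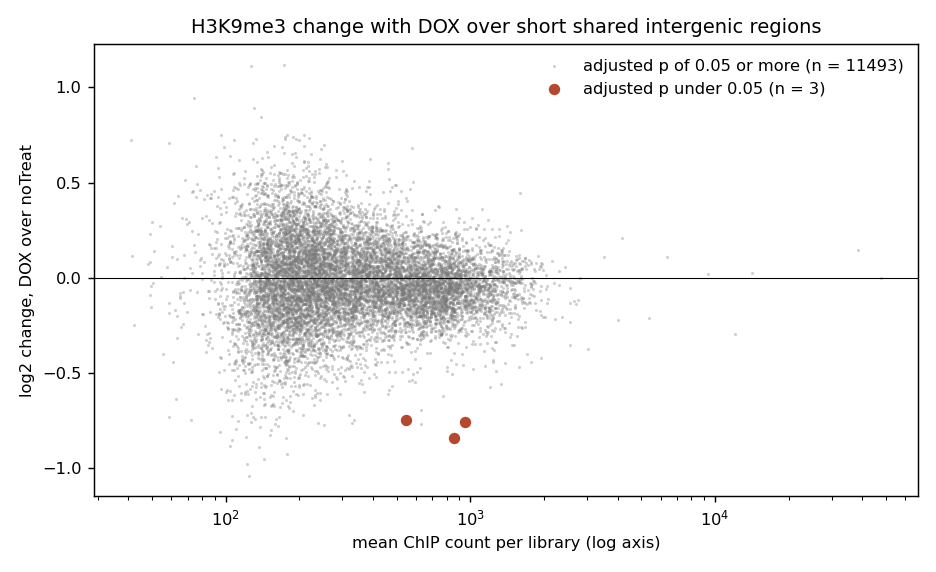
Log2 change of H3K9me3 with DOX over noTreat against the mean ChIP count per library (log axis), one point for each of the 11496 short intergenic regions. Red points are the 3 regions with an adjusted p under 0.05, at changes of -0.84, -0.76 and -0.75; the rest scatter around 0.

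One value per library was also compared between DOX and noTreat, where 3 against 3 libraries cannot give a p under 0.1 and so cannot show a difference or its absence. The median deposited log2 fold change was 1.15 ± 0.08 in DOX libraries and 1.06 ± 0.06 in noTreat libraries (SD, n = 3 each; exact permutation test, two-sided, p = 0.3). The plain ratio of ChIP to input counts went the other way, 1.94 ± 0.11 in DOX libraries and 2.32 ± 0.30 in noTreat libraries (SD, n = 3 each; exact permutation test, two-sided, p = 0.2). The median called length was 5400 bp in both groups (SD 721 bp in DOX and 400 bp in noTreat libraries, n = 3 each). The total called length was 69.5 ± 8.14 Mb in DOX libraries and 70.6 ± 4.85 Mb in noTreat libraries (SD, n = 3 each; exact permutation test, two-sided, p = 0.9).

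Most regions held no annotated gene of any kind. A non-coding gene, gene segment or pseudogene overlapped 1930 regions (16.8%), and 9566 (83.2%) overlapped none. The overlapping genes numbered 1755, or 6.65% of those annotated. They included 961 long non-coding RNAs (7.75% of that class), 597 pseudogenes (6.72%), 43 small nucleolar RNAs (3.34%) and 32 small nuclear RNAs (3.44%), and 526 of all overlapping genes lay wholly inside a region. Antigen receptor segments were among them, with 29 variable segments (7.36% of that class) and 18 variable segment pseudogenes (11.8%). Of these segments, 34 belonged to the immunoglobulin heavy chain locus (Igh) on chromosome 12. The kappa chain locus (Igk) on chromosome 6 had 9, the T cell receptor alpha locus (Tra) 2 and the beta locus (Trb) 2. Such segments are joined and transcribed in lymphocytes.

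Few of the overlapping genes had much RNA. Counts are over the whole gene, and most of these genes reach beyond the region, so RNA made inside a region was not measured. Of the 1755 genes, 1076 were matched by symbol to the RNA count tables, and 50 reached a mean CPM (counts scaled to the library total) of 1 over the 12 RNA libraries. The share among non-coding genes elsewhere was not counted. RNA library totals were 55006350 to 68222429 counts in iETV2 DOX, 42586343 to 65950842 in iETV2 control, 43246166 to 56671150 in DKO and 51011246 to 63246156 in DKO control. The most abundant genes included the imprinted RNAs Meg3, H19, Snhg14 and Airn. Other imprinted RNAs were looked up after the overlaps were seen. Of these, Rian, Mirg, Kcnq1ot1, Peg13 and Peg3os overlapped no short intergenic region. Kcnq1ot1 did overlap a long region and a gene-linked short one, and Peg13 a gene-linked short one. Rian, Mirg and Peg3os overlapped no shared region of any class. Imprinting control regions are known to carry H3K9me3 on their DNA-methylated allele, but whether the regions here match such sites was not tested. Allele-specific signal was not measured here.

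H19 and its miRNA Mir675 lay wholly inside chr7:142574401-142584600. H3K9me3 there was 4.01-fold, 3.27-fold and 2.93-fold in DOX-D2, DOX-D3 and Er71-Flag-DOX-D2, against 3.50-fold, 2.72-fold and 3.72-fold in noTreat1, noTreat2 and noTreat3, so that the groups overlapped. The region at Meg3, chr12:109534601-109545000, covered the promoter printed above. It was 2.91-fold, 2.56-fold and 2.40-fold in the DOX libraries and 2.08-fold, 2.14-fold and 2.54-fold in the noTreat libraries, again with overlap. Airn, the antisense RNA of the Igf2r locus, was overlapped by chr17:12813001-12829800 with a median of 1.78-fold. The long Snhg14 transcript unit of the Prader-Willi and Angelman locus was overlapped by 6 of the short intergenic regions and 4 long ones.

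DOX in iETV2 cells first shows in Etv2 itself. Etv2 RNA was 19.7, 18.1 and 18.2 CPM in iETV2 DOX libraries, against 2.73, 3.02 and 3.05 CPM in iETV2 control libraries (edgeR log2 change 2.68, SE 0.10, adjusted p = 1.42e-11). All 4 markers of blood and endothelium rose, with summed levels of 358 to 370 CPM with DOX and 13.4 to 16.5 CPM without. Of 5 embryonic stem cell markers 2 rose and 1 fell (sums of 495 to 589 CPM with DOX and 589 to 632 CPM without), of 3 early mesoderm markers 2 rose and 1 fell (1207 to 1256 and 1042 to 1102 CPM), and of 3 fibroblast markers 2 rose (21.9 to 26.9 and 7.32 to 16.0 CPM). No marker was at 0, and the part of these differences in the results below was not tested. Of the 162 non-coding genes overlapping a region that passed the count filter, 8 rose (4.94%) and 4 fell (2.47%), where 13.7% of all tested genes rose and 13.3% fell. Of the 22025 tested genes 15431 were coding genes with a position. No share was computed for non-coding genes outside the regions, so a difference due to the regions cannot be read from this. These 12 calls became 7 without iETV2 DOX replicate 1 or replicate 2. With the replicate number added to the fit they became 24 (14.8%, where 38.0% of all tested genes were called). The filter keeps genes with enough counts in at least 1 group, so most of the 1076 matched genes are not in this count.

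Several imprinted RNAs moved with DOX. H19 was 13.2, 13.1 and 14.2 CPM in iETV2 DOX libraries, against 4.02, 3.21 and 4.60 CPM in iETV2 control libraries (edgeR log2 change 1.80, SE 0.12, adjusted p = 6.72e-09). Airn rose likewise, to 9.30, 12.2 and 10.2 CPM with DOX, against 3.33, 4.05 and 3.62 CPM in iETV2 control. Snhg14 fell to 42.6, 44.6 and 41.6 CPM with DOX, against 77.1, 88.6 and 85.2 CPM in iETV2 control (edgeR log2 change -0.95, SE 0.07, adjusted p = 5.50e-08). For each of these 3 genes the groups did not overlap. Meg3 was 531, 606 and 488 CPM with DOX and 574, 656 and 593 CPM in iETV2 control, and its change of -0.15 was not called (edgeR adjusted p = 0.257). Without iETV2 DOX replicate 2 it was called, with -0.28 (edgeR adjusted p = 0.0401). Gm29895, whose promoter is printed above, fell to 6.13, 5.89 and 6.22 CPM with DOX, against 15.5, 22.4 and 19.7 CPM in iETV2 control (edgeR log2 change -1.65, SE 0.12, adjusted p = 3.39e-08).

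In the knockout comparison the targeted genes do not check the labels. Kdm4a was 42.9, 46.9 and 42.0 CPM in libraries labelled DKO, against 53.9, 54.4 and 55.7 CPM in their control. Kdm4c was 48.0, 42.7 and 46.0 CPM in libraries labelled DKO and 30.2, 32.2 and 29.6 CPM in their control, which is higher, not lower. Counts over a whole gene do not show a deletion of part of it, and the sources used here do not say which part was deleted. The libraries labelled DKO also differed from their control in cell markers. Summed embryonic stem cell markers were 895 to 941 CPM against 36.9 to 40.2 CPM, and summed blood and endothelium markers 119 to 123 CPM against 667 to 678 CPM. Early mesoderm markers were 768 to 782 CPM against 205 to 208 CPM and fibroblast markers 29.6 to 33.0 CPM against 424 to 435 CPM. All 5 stem cell and all 3 mesoderm markers rose, all 4 blood and endothelium and all 3 fibroblast markers fell, and none was at 0. The part of these cell differences in the RNA results below was not tested. In bulk samples, fewer cells of a type and less RNA per cell cannot be told apart.

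More of the called genes overlapping the regions rose than fell in libraries labelled DKO. Of the 115 that passed the count filter, 50 rose (43.5%) and 15 fell (13.0%), where 35.6% of all tested genes rose and 33.7% fell. The median log2 change was 0.54, against 0.037 over all tested genes. Here too most tested genes were coding ones with a position, 14519 of 20426, and no share was computed for non-coding genes elsewhere. How these shares compare with all genes depends on the filter. With DESeq2 53 of 320 rose (16.6%) and 14 fell, where 24.0% of all genes rose. With no filter on low counts 62 of 775 rose (8%) and 16 fell, where 19.2% of all genes rose, and the median log2 change reversed to -0.23, against -0.08 over all genes. A gene can pass the filter through 1 group alone, so none of these figures describes all 1076. Among those that rose were 33 long non-coding RNAs, 12 pseudogenes and 4 transcribed pseudogenes. Those that fell were 7 long non-coding RNAs, 7 pseudogenes and 1 transcribed pseudogene. The number tested in each class was not counted, so no share per class is given.

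Meg3 had the largest change among the 10 most abundant genes. It was 69.1, 65.1 and 63.8 CPM in libraries labelled DKO, against 0.611, 1.31 and 1.71 CPM in their control (edgeR log2 change 5.63, SE 0.13, adjusted p = 1.57e-19). Snhg14 rose to 74.4, 80.4 and 77.3 CPM in libraries labelled DKO, against 39.0, 39.6 and 39.4 CPM in their control. H19 fell to 41.1, 36.8 and 40.9 CPM in libraries labelled DKO, against 348, 340 and 340 CPM in their control (edgeR log2 change -3.24, SE 0.05, adjusted p = 6.99e-23). Airn fell too, to 5.90, 6.44 and 6.69 CPM in libraries labelled DKO, against 44.7, 46.2 and 47.7 CPM in their control. In each of the 4 genes the groups did not overlap. A230057D06Rik, a long non-coding RNA over the region that holds Mir344c, rose to 5.53, 5.88 and 5.79 CPM in libraries labelled DKO, against 1.08, 0.863 and 1.14 CPM in their control; it was singled out after its values were seen.

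Several genes overlapping a region on chromosome 13 rose in libraries labelled DKO, both pseudogenes and long non-coding RNAs. Chromosome 13 held 15 of the 115 tested genes (13.0%), of which 9 rose. Chromosome 2 held 9, of which 6 rose, chromosome 12 held 5, of which 4 rose, and chromosome 7 held 6, of which 4 rose. The pseudogene Gm7240 on chromosome 13 was 18.0, 16.9 and 16.4 CPM in libraries labelled DKO, against 3.77, 3.86 and 3.91 CPM in their control. Other pseudogenes there had lower levels in the control. Gm38428 was 3.79, 4.18 and 4.67 CPM in libraries labelled DKO, against 0.108, 0.098 and 0.0949 CPM in their control. Gm7896 was 5.57, 5.61 and 7.18 CPM in libraries labelled DKO, against 0.251, 0.118 and 0.158 CPM in their control. Vmn2r-ps104 was 4.07, 4.64 and 3.98 CPM in libraries labelled DKO, against 0.0359, 0.098 and 0.221 CPM in their control. Gm38428 and Gm7896 also rose with DOX in iETV2 cells, to a mean of 0.475 against 0.0999 CPM and of 1.17 against 0.570 CPM. These pseudogenes were singled out after their values were seen. Counts of pseudogenes are uncertain because reads of near-identical copies may be shared.

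The other 6 of the 10 most abundant genes were not called with DOX. Platr25, a non-coding RNA named for its association with pluripotency, was 37.3, 41.6 and 34.3 CPM in iETV2 DOX and 29.7, 37.3 and 37.4 CPM in iETV2 control (edgeR adjusted p = 0.365), and was not called in libraries labelled DKO either (edgeR adjusted p = 0.822). 2810429I04Rik and Olfr1372-ps1 rose in libraries labelled DKO, by 1.61 and 1.98 on the log2 scale. The pseudogenes Gm15459, at a mean of 512 CPM with DOX and 502 CPM in iETV2 control, Gm15427 and Atp6v0c-ps2 may share reads with their parent genes; in libraries labelled DKO Gm15459 and Gm15427 fell by 0.48 and 0.42 on the log2 scale.

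**Figure D5:**
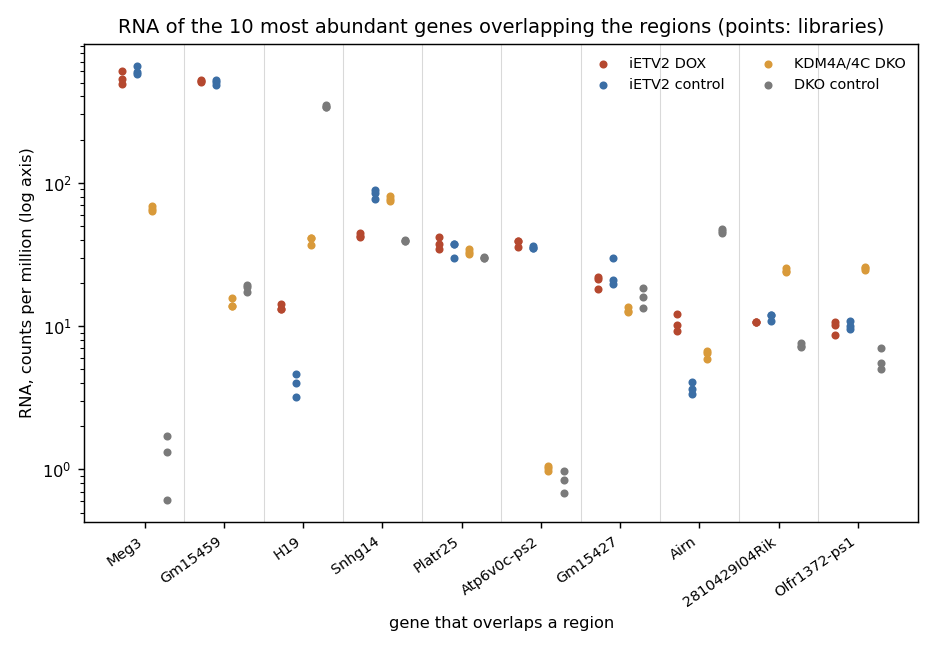
RNA of the 10 most abundant genes that overlap a short intergenic region, in CPM on a log axis. Each point is 1 library, and the groups run from left to right as iETV2 DOX, iETV2 control, DKO and DKO control. Meg3 is near 1 CPM in DKO control and 63.8 to 69.1 CPM in DKO, while H19 and Airn are lower in DKO than in its control.

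Coding genes near the regions changed about as often as coding genes in general. Of 20112 coding genes with a position and counts, 4832 (24.0%) had a region within 50 kb of the gene body. With DOX in iETV2 cells, 3172 of these passed the count filter, and 579 (18.3%) rose and 571 (18.0%) fell. Over all coding genes with a position 16.6% rose and 17.0% fell. In libraries labelled DKO, 2942 passed, and 1155 (39.3%) rose and 1178 (40.04%) fell, against 34.1% and 42.5% of all coding genes. The median log2 changes near the regions were 0.0074 with DOX and 0.0043 in libraries labelled DKO.

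The nearby genes named here have the largest changes in each direction and stand for no group. Cdh5, the adhesion molecule VE-cadherin of endothelial cells, lay 6.90 kb from chr8:104151401-104154800 and was 63.1, 64.4 and 66.8 CPM in iETV2 DOX libraries, against 1.07, 0.697 and 1.39 CPM in iETV2 control libraries (edgeR log2 change 6.01, SE 0.13, adjusted p = 1.99e-14). Klhl6, a Kelch-like gene known from B cells, rose by 4.53, Pmp22, a myelin gene, by 4.22, and Plek, which encodes pleckstrin of blood cells, by 3.97 on the log2 scale. Msx2 and Osr1, which encode mesodermal transcription factors, rose by 5.47 and 4.01. The largest changes downward were -5.65 in Dynlrb2, a dynein light chain gene, -5.43 in Foxd4, a forkhead gene, -4.41 in Tekt1, a tektin gene of cilia, and -4.26 in Dnah9, an axonemal dynein heavy chain gene, followed by Daw1 and Dnah6.

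In libraries labelled DKO the largest changes among nearby genes stand beside the marker differences given above. Esrrb, a pluripotency factor gene 29.6 kb from chr12:86551201-86553200, was 216, 221 and 216 CPM in libraries labelled DKO, against 3.70, 4.33 and 4.21 CPM in their control. Fgf5, an early epiblast gene, rose by 6.41, Olig2, a neural progenitor gene, by 5.34, and Gpa33, Triml1 and Gm10324 by 5.37 to 5.64 on the log2 scale. Plek fell to 0.0462, 0.0882 and 0.189 CPM in libraries labelled DKO, against 9.56, 9.68 and 9.85 CPM in their control. Csf2rb2, a cytokine receptor gene, Lcp2, an adaptor of blood cells, and Cd93, a receptor of endothelium and blood cells, fell by 7.69, 5.59 and 4.81, and Cldn11 and Prkar2b by 5.46 and 4.63 on the log2 scale.

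Genes that place, read or remove methylation of H3K9 were looked at as a list of 30. The list is not limited to enzymes of the trimethylated form, and 29 of its genes were measured. With DOX in iETV2 cells 4 rose (13.8%) and 5 fell (17.2%), near the 13.7% and 13.3% of all tested genes, and the median log2 change was 0.036 against 0.0024 over all genes tested. Suv39h1, a methyltransferase gene, rose to a mean of 117 CPM with DOX, against 78.3 CPM in iETV2 control. The demethylase genes Kdm4b, Kdm4c and Kdm3a fell, to 45.9, 57.1 and 108 CPM with DOX, against 66.6, 78.4 and 171 CPM in iETV2 control. Kdm4a was 87.3 CPM with DOX and 85.3 CPM in iETV2 control and was not called (edgeR adjusted p = 0.710). In libraries labelled DKO 15 rose (51.7%) and 12 fell (41.4%), where 35.6% and 33.7% of all tested genes did, with a median of 0.11 against 0.037 over all genes tested. Suv39h1 and Cbx3, which encodes HP1 gamma, fell to 109 and 53.4 CPM in libraries labelled DKO, against 263 and 126 CPM in their control. Atrx, a chromatin remodeller gene, and Fam208a, which encodes the HUSH subunit TASOR, rose to 822 and 173 CPM in libraries labelled DKO, against 345 and 69.4 CPM in their control.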

How the data were processed

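Per the file headers, the authors deposited for each H3K9me3 library a list of called regions holding ChIP and input counts, p-value and FDR, score and log2 fold change. Tested on the files, that fold change is log2(ChIP / input) less 1 constant per library, the deposited score rescales it, regions consist of whole 200 bp windows and every FDR is at most 0.05. The deposited RNA tables have no header and hold whole-number counts by Ensembl gene. The submitters' processing notes name Bowtie, DiffBind, ChIPseeker, HTSeq 2.0.3, featureCounts 2.0.6, DESeq2 1.18.1, STAR 2.7.10b, StringTie 2.2.1 and Picard 3.0.0 with GRCm38 and mm10; the caller, the counter and its strand setting are not given in the sources used here.

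Region coordinates were converted to 1-based positions and set against RefSeq genes of GRCm38.p6. Counts and called lengths were summed per merged region and library, and fold was taken from the summed counts. R 4.3.3 with edgeR 4.0.16 gave the quasi-likelihood tests (RNA: filterByExpr, TMM, 1 fit per comparison), with DESeq2 1.42.0 and limma 3.58.1 as alternatives, Benjamini-Hochberg adjustment over all regions or genes and a threshold of 0.05. A pseudocount of 1 was added to counts in the ChIP offset and in limma. Standard errors were taken as |log2 change| over the root of the F statistic. CPM used library totals. Single values per library were compared between DOX and noTreat with exact permutation tests; the paired test planned between classes of regions was computed but is not printed, because enrichment set the calls that chose the regions. The main edgeR fits were tested on simulated data with a fixed dispersion, and the alternatives were not. Ensembl IDs were given symbols from a table of gene names and matched to RefSeq genes by symbol or synonym (97.3% of coding genes). Python 3.11.15 was used.

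Regions named are the 5 longest, the 5 highest and 5 lowest by median ratio of ChIP to input, the largest clusters, those called with DOX and those at the limits. Genes named are Etv2 and Kdm4a to Kdm4c, the 10 most abundant genes overlapping a region and members of the list for H3K9 methylation. Coding genes within 50 kb with an average log2 CPM of at least 1 and groups that do not overlap were ranked. Of these the 6 largest changes per direction are named. Others are named as chosen after their values were seen. The regions and the lists were chosen with earlier results of these data known. The H188A libraries were not used here.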

Additional observations from a re-analysis of the deposited data

How the results depend on the processing

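The number, median length and median fold of the regions kept their values, within 1.5 times or 1 SD between libraries, when the length limit was 20 or 50 kb, the distance 0 or 20 kb, the calls were asked of 5 libraries, gaps up to 1 kb were joined, only regions with an FDR of 0.001 or less were used, or 1 library was left out; the number ran from 9516 to 14449. The median fold also stayed within 1 SD without chromosomes 1, 10, 11 and 12, an alternative chosen after seeing the data (2.28). The count of regions called with DOX was 3. It was 0 with the deposited constants and with limma, 16 with DESeq2, and between 0 and 27 with 1 library left out. With called length and TMM scaling it was 5 (0.0435%, where 0.0519% of all shared regions were called). The median log2 change over the regions reversed to 0.060 with the deposited constants and 0.027 with called length and TMM; the cause was not tested. Per library, the difference between DOX and noTreat in the median fold reversed to -0.38 when plain ratios replaced the deposited log2 fold change, and the difference in total called length ran from -4.39 to 3.42 Mb with 1 library left out, with a change of sign. Between the intergenic and gene-linked short regions the difference in log2 fold change reversed to -0.0034 at an FDR of 0.001 or less. With 1 library left out the difference from the long regions ran from -0.13 to -0.098 and that in counts per kb from the gene-linked short regions from -0.018 to -0.015, both with the same sign throughout; their paired test cannot pass with 5 libraries.

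For genes near the regions, windows of 20 and 100 kb gave 494 and 1886 calls with DOX and 1010 and 3840 in libraries labelled DKO, in place of 1150 and 2333. These counts follow the number of genes in the window. With DOX the called share was 35.8%, 36.3% and 36.0% for 20, 50 and 100 kb, against 33.6% of all coding genes. In libraries labelled DKO it was 79.0%, 79.3% and 78.4%, against 76.6%. The 12 calls with DOX among genes overlapping the regions ran from 7 (without iETV2 DOX replicate 1 or 2) to 14 with 1 library left out. The replicate numbers of the titles did not pair the samples throughout. Same-numbered samples deviated together in 2 of 3 pairs of the iETV2 comparison (correlations -0.012, 0.32 and 0.56). For replicates 1, 2 and 3 the highest correlation with another number was 0.45, -0.090 and 0.070. In the DKO comparison no same-numbered pair deviated together (-0.0083, -0.0032 and 0.0099). With the replicate block 24 genes overlapping the regions were called with DOX in place of 12. Over all tested genes the called share with DOX went from 27.0% to 38.0%. The block moved none of the other 3 counts of called genes by over 1.5 times. Meg3, not called with DOX, was called with the block (log2 change -0.16, edgeR adjusted p = 0.00171). Among single genes, Gm15459 with DOX ran from -0.020 to 0.079 and Platr25 in DKO from -0.014 to 0.039 with 1 library left out, with a change of sign (Platr25 also to -0.0077); neither was called. Depth limits the ChIP test: counts exist only inside called regions, and a region's change has a median standard error of 0.18.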
